A study of Mus musculus with 6 samples.

Results

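Collagens are the triple-helical proteins of the extracellular matrix, and 42 collagen genes were measured in sorted cells of the embryonic mouse genital tubercle. They were taken as every gene whose symbol is Col, a number, a and a number, among probe sets annotated to exactly 1 gene, which gave 82 of 34945 such probe sets and 42 of 18193 genes. Each gene is represented by its probe set with the highest mean over the 6 arrays. By class there were 11 fibrillar collagens, 9 of the basement membrane and its zone, 9 fibril-associated collagens with interrupted helices (FACIT), 4 transmembrane collagens and 9 others.

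The tubercle is the outgrowth that becomes the penis or clitoris, and Shh is made by the urethral plate epithelium along its midline. All embryos were taken at 12.5 days post coitum (dpc) on a mixed background and carried both Shhtm1(EGFP/cre)Cjt, which puts a fusion of green fluorescent protein and Cre recombinase under the Shh locus, and Gt(ROSA)26Sortm3(CAG-EYFP)Hze, a yellow reporter that Cre switches on. Both fractions therefore share these alleles, and the reporter also marks descendants of cells that once expressed Shh. Trypsin-dissociated cells were sorted into a reporter-positive fraction, labelled urethral epithelium, and a reporter-negative fraction, the remaining tubercle cells. Each fraction has 3 arrays, and replicates 1, 2 and 3 are pools of 3, 5 and 2 littermates of both sexes.

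Fibrillar collagens such as types I, III and V form the tensile fibrils of mesenchyme. Type IV collagen forms the network inside basement membranes, the sheets on which epithelia rest, and type XVIII is a proteoglycan of the same sheets. FACIT collagens decorate fibrils, and transmembrane collagens such as type XVII anchor cells to the matrix. A chain becomes a secreted trimer after hydroxylation, folding with chaperones, removal of its propeptides and cross-linking.

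The 250 bases before the start sites of 3 collagen genes are shown because these genes had the largest negative and positive differences of the family below. They come from RefSeq on GRCm38.p6, where 33 of the 42 genes had a window. Col1a2 lies on the plus strand (chr6:4505368-4505617), Col3a1 on the plus strand (chr1:45311288-45311537), and Col18a1 on the minus strand with 2 starts (chr10:77166531-77166780 and chr10:77113706-77113955). Capitals mark the letters TATAAA (the TATA box), CCAAT (the CCAAT box) and GGGCGG (the GC box) on either strand, searched separately so that matches could overlap.
Col1a2: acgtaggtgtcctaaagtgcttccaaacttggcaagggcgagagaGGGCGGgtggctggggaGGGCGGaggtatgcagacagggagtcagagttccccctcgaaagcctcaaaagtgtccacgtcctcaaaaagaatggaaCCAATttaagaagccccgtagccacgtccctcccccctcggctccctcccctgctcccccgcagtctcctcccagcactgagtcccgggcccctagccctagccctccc
Col3a1: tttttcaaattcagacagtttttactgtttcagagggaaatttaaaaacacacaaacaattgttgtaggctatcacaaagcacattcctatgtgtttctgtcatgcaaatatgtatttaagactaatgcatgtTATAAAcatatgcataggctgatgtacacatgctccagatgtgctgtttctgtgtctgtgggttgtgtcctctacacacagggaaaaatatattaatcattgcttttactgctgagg
Col18a1 start 1: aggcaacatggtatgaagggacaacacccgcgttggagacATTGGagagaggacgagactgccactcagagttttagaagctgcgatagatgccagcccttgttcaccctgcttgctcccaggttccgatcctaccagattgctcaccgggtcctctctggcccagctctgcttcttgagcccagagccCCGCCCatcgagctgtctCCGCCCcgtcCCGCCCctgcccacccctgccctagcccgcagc
Col18a1 start 2: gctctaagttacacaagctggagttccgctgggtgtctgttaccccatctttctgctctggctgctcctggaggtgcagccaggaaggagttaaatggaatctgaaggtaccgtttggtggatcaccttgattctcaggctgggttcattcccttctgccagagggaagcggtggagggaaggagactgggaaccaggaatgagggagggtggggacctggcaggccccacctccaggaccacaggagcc
The Col1a2 window held CCAAT once and GGGCGG at 2 places, and the first Col18a1 window held CCAAT once and GGGCGG at 3 places. The Col3a1 window held only TATAAA, 117 to 112 bases before the start. These are matches of letters alone, and their function was not tested. No match of these letters was found in the second Col18a1 window. Among 36 collagen windows 5 held TATAAA, 13 held CCAAT and 21 held GGGCGG, which is 13.9%, 36.1% and 58.3%. Among all 32851 windows of the table, which differ in base composition and include genes of every kind, the shares were 12.4%, 33.8% and 32.7%. The starts of Col4a1 and Col4a2 lie on opposite strands of chromosome 8, 21 bases apart.

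The arrays differed in signal and in cell content before any collagen was considered. In positive replicate 3 the median deposited signal of named probe sets was 0.34, against 2.15 to 8.84 on the other 5 arrays. Its profile also stood apart, with rank correlations over probe sets of 0.325 to 0.345 with the other arrays, which correlated at 0.716 to 0.862 among themselves. Only 24.6% of its named probe sets exceeded background, against 44.0% to 59.3% elsewhere, where background on an array is the highest signal among its 27 bacterial controls that were not spiked. All 12 epithelial markers were above background on each positive array, and their summed normalized signal was 1315 to 3288 in positive and 73.8 to 110 in negative arrays. The positive arrays thus carried the epithelial markers of their label, while mesenchymal markers set the positive arrays apart from each other. The sum of 15 mesenchymal markers was 1791 in positive replicate 1, inside the range of 1453 to 1957 of the negative arrays, and 287 and 281 in positive replicates 2 and 3. Of these 15 markers 14, 8 and 5 were above background in positive replicates 1, 2 and 3. Endothelial markers summed to 38.7 to 73.3 in positive and 37.1 to 52.7 in negative arrays. The representative probe sets of Pecam1, Tie1 and Sox17 exceeded background on no array. Chondrogenic markers summed to 50.6 to 191 in positive and 31.2 to 52.6 in negative arrays, erythroid markers to 682 to 1500 and 3129 to 6013, and macrophage markers to 70.9 to 161 and 16.7 to 44.6. The chondrogenic sum of 191 was in positive replicate 3, and positive replicate 2 gave 64.2. Of 8 chondrogenic markers 5, 4 and 3 were above background in positive replicates 1, 2 and 3. Of 10 endothelial markers 7, 2 and 1 were so. Fewer cells of a type and less RNA per cell cannot be told apart in such bulk samples.

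By its representative probe set, 7 of the 42 collagen genes exceeded background on all 6 arrays: Col1a2, Col3a1, Col5a2, Col4a1, Col4a5, Col18a1 and Col6a2. A further 21 did so on 3 to 5 arrays and 9 on 1 or 2. The other 5, Col9a2, Col11a2, Col22a1, Col6a4 and Col6a5, exceeded it on no array with that probe set, although other probe sets of Col22a1 and Col6a4 did so on 1 or 2 arrays. Above background on every negative array were 21 genes, and on every positive array 7. Positive replicate 3 had 24.6% of named probe sets above background, against 51.6% to 59.3% on negative arrays. The same counts over all genes are not given here, so no difference between fractions is read from them. Genes dimmer on average than the 30th percentile of the named probe sets were not tested, which left 39 collagens to test and took out Col9a2, Col15a1 and Col6a5.

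No collagen gene passed the test between the fractions with all 6 arrays. The adjusted p ranged from 0.725 to 0.975 over 39 genes (limma with Benjamini-Hochberg adjustment over 14071 genes). Over all genes 0.0142% passed as higher and 0% as lower, so the test called almost nothing at this size. At an unadjusted p under 0.05 limma counted 7 collagens, where 5.17% of all genes did so: Col1a1, Col1a2, Col3a1, Col5a2, Col11a2, Col18a1 and Col26a1. Without positive replicate 3, the dim array, 35 collagens were tested and again none passed, with 0.611% of all genes called, 0.56% higher and 0.0509% lower. The count at an unadjusted p under 0.05 was then 8, with 9.15% of all genes. Col11a2 fell below the signal filter in that fit and was not tested. Two-sided exact permutation of 3 against 3 arrays cannot give a p below 0.1, so no such test is reported.

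The medians of the collagen classes differed in sign. The median log2 difference, positive minus negative, was -0.05 over the 39 tested collagens and -0.03 over all tested genes. By class it was -0.51 for 11 fibrillar collagens, 0.44 for 8 basement membrane collagens, 0.26 for 8 FACIT collagens, -0.24 for 4 transmembrane collagens and -0.35 for 8 others. Negative differences were found in 8 of 11, 2 of 8, 3 of 8, 3 of 4 and 7 of 8 of them. Col4a3, Col4a4, Col12a1, Col10a1 and Col11a2, each with a positive difference, fell below the signal filter without positive replicate 3. The class medians and counts over 6 arrays include them. The basement membrane median lay between Col4a3 and Col4a4 (0.43 and 0.45), whose representative probe sets were above background in positive replicate 3 alone. The FACIT median lay between Col22a1 (0.21), above background on no array with that probe set, and Col20a1 (0.31), above it on 1 array of each group. The positive median of the basement membrane class became -0.36 with values as deposited and -0.17 with median centring, where the median of all genes was -0.48 and -0.29. Relative to that all-gene median it was 0.12 in both cases. The FACIT median turned to -0.12 when each gene's probe set was chosen without positive replicate 3, and to -0.16 with values as deposited. Relative to the all-gene median of each setting these FACIT values were -0.07 and 0.32. With array weights the fibrillar median was -0.16, and with the mean of probe sets the basement membrane and FACIT medians were 0.13 and 0.04. None of these class medians was tested.

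**Figure D1:**
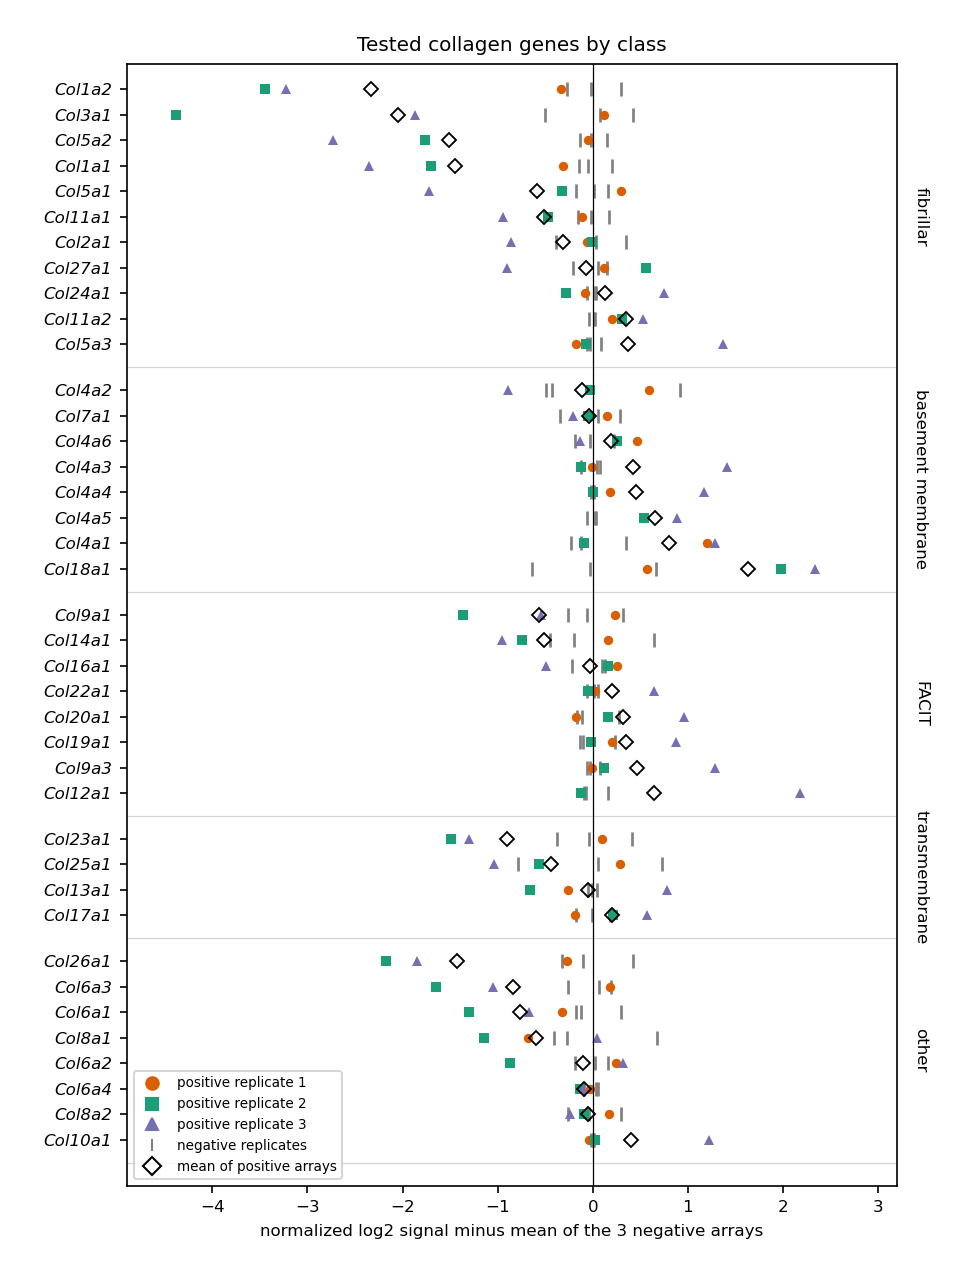
Normalized log2 signal of each of the 39 tested collagen genes minus its mean over the 3 negative arrays, by class. Coloured symbols are the 3 positive arrays, grey ticks the 3 negative arrays and open diamonds the mean of the positive arrays. Positive replicate 1 lies close to the negative arrays for Col1a2, Col3a1 and Col5a2, while positive replicates 2 and 3 lie to the left.

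The positive arrays were unlike each other in their fibrillar collagens. In positive replicate 2 there were 9 of 39 collagens more than 1 log2 unit below the lowest negative array, where 1.14% of all tested genes were that low. They were the fibrillar Col1a1, Col1a2, Col3a1 and Col5a2, the FACIT Col9a1, the transmembrane Col23a1, and Col6a1, Col6a3 and Col26a1. Positive replicate 3 had 6 such collagens, against 12.1% of all genes, and positive replicate 1 had 0, against 0.0497%. The fibrillar median was -0.06, -0.32 and -0.94 in positive replicates 1, 2 and 3 relative to the negative mean. The mesenchymal marker median was -0.03, -1.51 and -1.72 in the same order, and the all-gene median in positive replicate 3 was -0.16. Fibrillar collagens and mesenchymal markers thus both had medians near the negative level in positive replicate 1. So did the FACIT, transmembrane and other classes there (0.09, -0.04 and -0.04) and all tested genes (-0.01). The basement membrane median was 0.50, -0.01 and 1.03 in positive replicates 1, 2 and 3. The part of mesenchymal cells in these collagen values was not tested.

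**Figure D2:**
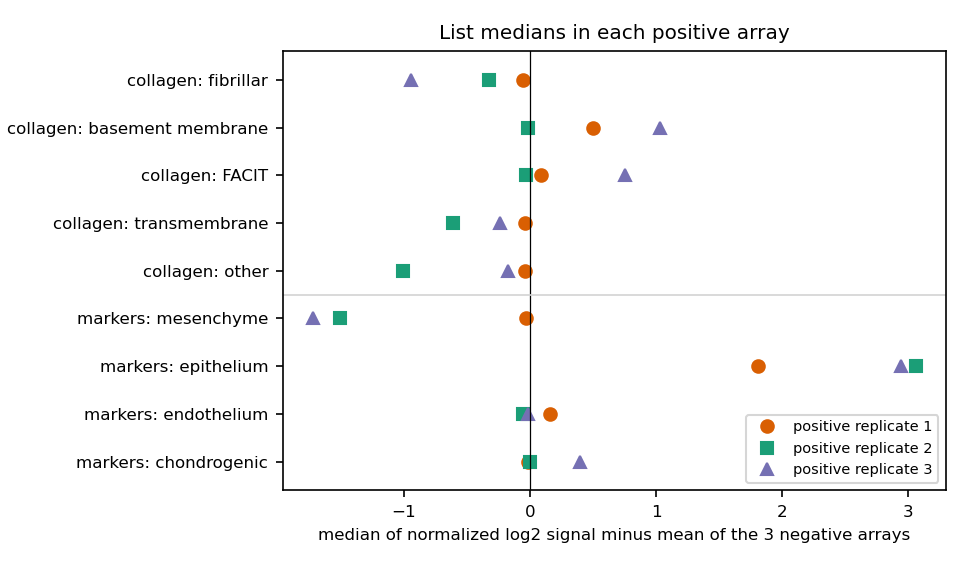
Median over each list of normalized log2 signal minus the mean of the 3 negative arrays, in each positive array. The mesenchymal markers lie at -0.03 in positive replicate 1 and at -1.51 and -1.72 in replicates 2 and 3, and the fibrillar collagens at -0.06, -0.32 and -0.94.

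Type I collagen, the main tensile fibril of mesenchyme and later of bone and skin, is a trimer of chains from Col1a1 and Col1a2. Col1a2 had a normalized log2 signal of 9.42, 8.85 and 9.11 across negative replicates 1, 2 and 3, and 8.80, 5.68 and 5.90 in the positive ones. All 3 positive arrays lay below all 3 negative ones, but positive replicate 1 by only a small step. The deposited signals were 1097, 1069 and 215 in the negative and 358, 22.5 and 1.80 in the positive arrays. Col1a2 differed by -2.34 (SE 0.71, adjusted p = 0.725, limma), and -1.93 (SE 0.62, adjusted p = 0.288, limma) without positive replicate 3. Without positive replicate 1 it was -3.37 and passed (adjusted p = 0.0257, limma). It was then the 1 collagen of 39 called, where 0.156% of all genes were called, 0.12% higher and 0.0354% lower. Over 19 alternatives it stayed negative, from -3.37 to -1.62, and all 3 probe sets of the gene had a negative difference.

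Col1a1, the partner chain, gave 6.63, 6.29 and 6.38 across negative replicates 1, 2 and 3, and 6.12, 4.74 and 4.09 in the positive ones. Its groups also did not overlap, as was the case in this direction for 3 of 39 collagens and 6.99% of all genes. The difference was -1.45 (SE 0.52, adjusted p = 0.725, limma), and its second probe set was at -0.23. Positive replicate 3 read 0.07 in deposited units for Col1a1, under the background of 1.12 on that array.

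Type III collagen is the homotrimer that forms fine fibrils together with type I in loose mesenchyme. Col3a1 measured 10.15, 9.81 and 9.22 across negative replicates 1, 2 and 3, and 9.84, 5.34 and 7.86 in the positive ones. Positive replicate 1 lay inside the negative range, and positive replicate 2 was the lowest of all arrays. In deposited units positive replicate 2 read 16.03 where negative arrays read 243 to 1953. The difference was -2.05 (SE 0.88, adjusted p = 0.725, limma), -2.18 without positive replicate 3 and -0.85 without positive replicate 2, so this array set much of its size. Both probe sets were negative, at -2.05 and -1.70.

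Type V collagen starts the assembly of type I fibrils and sets their width. Its chain Col5a2 measured 7.97, 7.69 and 7.81 in negative and 7.78, 6.06 and 5.09 in positive replicates 1, 2 and 3. The first positive array again lay inside the negative range, and the others were below it. Col5a2 differed by -1.51 (SE 0.61, adjusted p = 0.725, limma), and -0.93 (SE 0.43) without positive replicate 3. Col5a1 measured 6.60, 6.41 and 6.75 in negative and 6.88, 6.26 and 4.87 in positive replicates, a difference of -0.58 that was -0.02 without positive replicate 3. One of the other probe sets of Col5a1 was at 0.62 and the other at -0.60. Col5a3 exceeded background on 1 array of each group.

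The remaining fibrillar collagens showed smaller differences. Cartilage fibril chains Col2a1 and Col11a1 differed by -0.31 (SE 0.37) and -0.51 (SE 0.35), and neither passed. Col11a1 was at -0.32 without positive replicate 3. The summed chondrogenic markers were 50.6, 64.2 and 191 in positive replicates 1, 2 and 3, and their part in these values was not tested. Col2a1 was above background on all 3 negative arrays and on 2 positive ones, with positive values of 5.13, 5.18 and 4.32 against 4.80 to 5.54 in negative arrays. Without the dim array Col2a1 was at -0.03. Col27a1 measured 5.29, 5.21 and 4.94 in negative and 5.27, 5.70 and 4.24 in positive replicates 1, 2 and 3, and its difference turned from -0.07 to 0.36 without positive replicate 3. Col11a2 had 3 positive arrays above all negative ones, a difference of 0.35, but exceeded background on no array, so no fold is given. Col24a1 exceeded background on 2 negative arrays and 1 positive one.

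**Figure D3:**
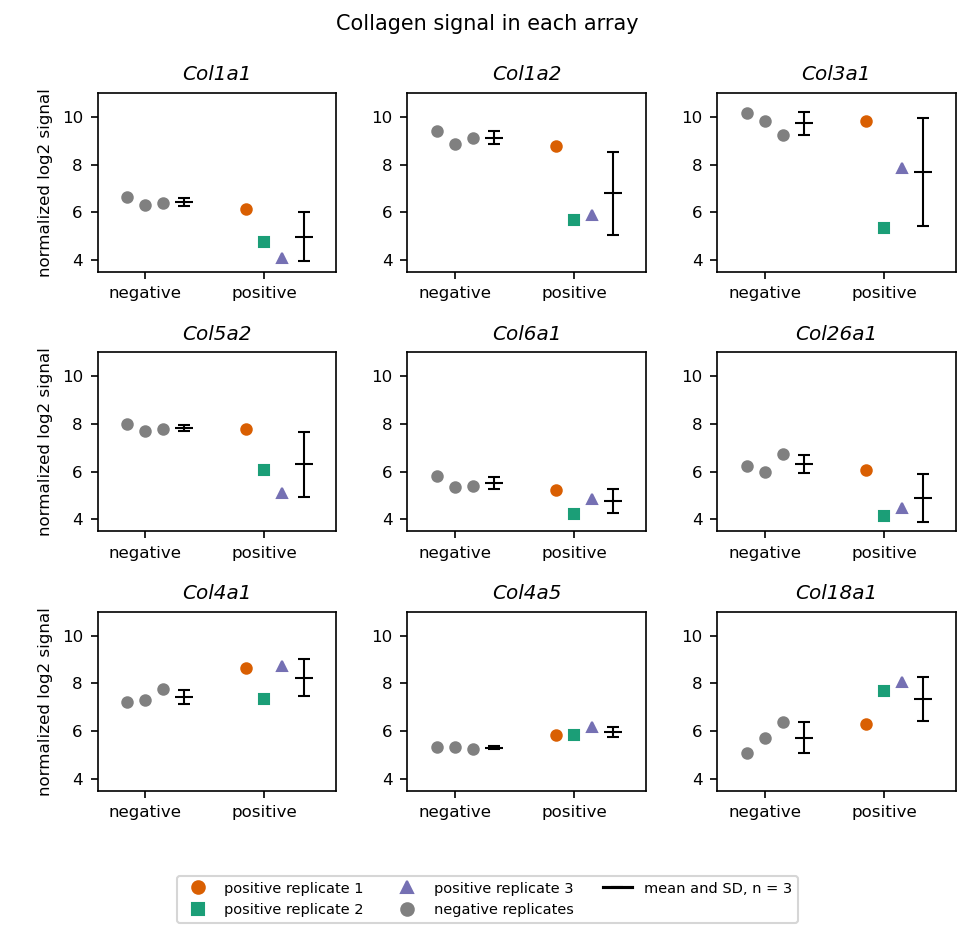
Normalized log2 signal of 9 collagen genes in the 3 negative and 3 positive arrays, with mean and SD beside each group (n = 3). Col1a2, Col3a1 and Col5a2 have positive replicate 1 near the negative level and the others below it. Col4a5 has all 3 positive arrays above the negative ones on this scale. Its difference is -0.39 with values as deposited and -0.20 with median centring, and 0.09 relative to the all-gene median in both.

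Col18a1 had the highest positive difference among the tested collagens. It encodes the core protein of a heparan sulfate proteoglycan of basement membranes, whose C-terminal fragment is endostatin. Its normalized log2 signal was 5.07, 5.69 and 6.37 in negative and 6.29, 7.69 and 8.05 in positive replicates 1, 2 and 3. Positive replicate 1 fell just inside the negative range, and the other positive arrays lay above it. The deposited signals were 29.8, 81.9 and 24.0 in the negative and 58.0, 123 and 3.87 in the positive arrays. Positive replicate 3 was thus the lowest array before normalization. The gene exceeded background on all 6 arrays. Col18a1 differed by 1.63 (SE 0.55, adjusted p = 0.725, limma) and 1.33 (SE 0.46, adjusted p = 0.341, limma) without positive replicate 3. The second probe set gave 1.70. The difference was positive in all 19 alternatives, from 0.06 with values as deposited to 2.2 without positive replicate 1.

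Weighting the arrays by their fit, with arrayWeights in limma, called Col18a1 higher at 1.38 (adjusted p = 0.0114, limma) and Col1a2 and Col3a1 lower at -1.68 and -2.01 (adjusted p = 0.00544 and 0.00335, limma). These were 1 and 2 of 39 collagens, and in this fit 3.41% of all genes were called, 1.81% higher and 1.6% lower. The fit gives arrays that deviate from their group less weight.

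Type IV collagen is made as trimers of 3 kinds. Col4a1 and Col4a2 give the ubiquitous form, Col4a5 and Col4a6 a form of certain epithelial basement membranes, and Col4a3 and Col4a4 join Col4a5 in kidney and lung. Col4a1 measured 7.19, 7.30 and 7.77 in negative and 8.62, 7.33 and 8.71 in positive replicates 1, 2 and 3. Positive replicate 2 lay inside the negative range. The difference of 0.80 (SE 0.43) did not pass, its other probe set gave -0.54, and values as deposited and median centring turned it to -1.08 and -0.89. Col4a2, its partner chain, measured 5.04, 5.10 and 6.45 in negative and 6.12, 5.50 and 4.64 in positive arrays, a difference of -0.11 that was 0.30 without positive replicate 3. The summed endothelial markers were 73.3, 38.7 and 56.7 in positive replicates 1, 2 and 3, and their part in type IV values was not tested.

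Col4a5 was the only basement membrane collagen with all positive arrays above all negative ones. It measured 5.32, 5.34 and 5.24 in negative and 5.83, 5.84 and 6.18 in positive replicates 1, 2 and 3. Non-overlap in this direction was found for 2 of 39 collagens, Col4a5 and Col11a2, and for 6.29% of all genes. The difference was 0.66 (SE 0.34, adjusted p = 0.725, limma), and 0.57 (SE 0.29) without positive replicate 3. It was -0.39 with values as deposited and -0.20 with median centring, and 0.09 relative to the all-gene median in both. A further probe set gave -0.08. Col4a6 measured 4.51, 4.11 and 4.26 in negative and 4.76, 4.55 and 4.16 in positive replicates, above background in 1 negative and 2 positive arrays. Its difference was 0.19 (SE 0.22), and 0.40 (SE 0.21) without positive replicate 3. Col4a4 measured 4.04, 4.02 and 4.03 in negative and 4.21, 4.03 and 5.20 in positive replicates, above background in positive replicate 3 alone. The representative probe set of Col4a3 was likewise above background in that array alone, and its other probe set was so in 1 negative and 1 positive array.

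The remaining collagens of the basement membrane zone were dim. Col7a1, which forms the anchoring fibrils below stratified epithelia, measured 4.76, 4.53 and 4.13 in negative and 4.62, 4.43 and 4.26 in positive replicates 1, 2 and 3. Its groups overlapped fully, with a difference of -0.03 (SE 0.23). Col15a1, a relative of Col18a1, exceeded background on 2 negative arrays and no positive one, and without positive replicate 3 it differed by -0.08 (SE 0.17).

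As in every class, no transmembrane collagen passed with all 6 arrays. Col17a1, a hemidesmosome component of basal keratinocytes, measured 4.27, 4.46 and 4.10 in negative and 4.09, 4.5 and 4.85 in positive replicates 1, 2 and 3, a difference of 0.20 (SE 0.23) that was 0.02 without positive replicate 3 and -0.23 with values as deposited. Relative to the all-gene median the value as deposited was 0.25. Col17a1 exceeded background on 2 negative arrays and 1 positive one. Col23a1 measured 5.42, 5.76 and 6.21 in negative and 5.90, 4.31 and 4.49 in positive replicates, a difference of -0.90 (SE 0.47). Here positive replicates 2 and 3 were below the negative range and positive replicate 1 was inside it. Col25a1 spread from 4.30 to 5.82 within the negative group, and its difference of -0.44 (SE 0.46), which was -0.14 without positive replicate 3, was smaller than that spread. Col13a1 measured 4.87, 4.96 and 4.91 in negative and 4.65, 4.26 and 5.69 in positive replicates, a difference of -0.04 that was -0.51 without positive replicate 3.

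FACIT collagens were mostly near background. Col9a1, a chain of the cartilage-type FACIT, measured 5.71, 6.08 and 5.51 in negative and 6.0, 4.40 and 5.22 in positive replicates 1, 2 and 3, a difference of -0.56 (SE 0.45). Col14a1, which binds fibrils in loose connective tissue, measured 5.62, 4.78 and 4.53 in negative and 5.13, 4.23 and 4.02 in positive replicates, a difference of -0.52 (SE 0.39). Both genes overlapped between the fractions. Leaving out positive replicate 3 moved Col14a1 to -0.32. Col16a1 differed by -0.03 (SE 0.26), and Col19a1, Col20a1 and Col22a1 by 0.35, 0.31 and 0.21, which became 0.11, -0.01 and -0.01 without positive replicate 3.

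The highest FACIT differences rested on the same array. Col12a1 measured 4.07, 4.30 and 4.04 in negative and 4.01, 4.01 and 6.32 in positive replicates 1, 2 and 3, a difference of 0.64 (SE 0.53). Col9a3 measured 4.14, 4.27 and 4.17 in negative and 4.19, 4.32 and 5.48 in positive replicates, a difference of 0.47 (SE 0.32). In both genes only positive replicate 3 stood above the negative range by more than a small step. For 6 collagens, Col12a1, Col20a1, Col22a1, Col4a3, Col4a4 and Col9a3, another probe set was the brightest when that array was left out of the choice. With those probe sets Col12a1 was at -0.23 and Col9a3 at -0.11, and these were above background on 2 negative arrays each, and on 1 and 0 positive arrays. The representative probe sets of Col12a1, Col9a3, Col4a3, Col4a4 and Col10a1 were above background in positive replicate 3 alone, so no fold is given for these 5 genes.

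Type VI collagen forms beaded filaments around mesenchymal cells from the chains of Col6a1, Col6a2 and Col6a3. Col6a1 measured 5.83, 5.36 and 5.41 in negative and 5.21, 4.23 and 4.87 in positive replicates 1, 2 and 3, with no overlap of the groups. Its difference was -0.76 (SE 0.37, adjusted p = 0.725, limma), and -0.89 (SE 0.34) without positive replicate 3. Col6a3 measured 6.12, 5.79 and 6.24 in negative and 6.23, 4.40 and 5.00 in positive replicates, a difference of -0.84 (SE 0.49). Col6a2 measured 5.84, 5.49 and 5.70 in negative and 5.92, 4.81 and 6.0 in positive replicates, a difference of -0.10 (SE 0.42). In positive replicate 2 all 3 chains were below the negative range, and in positive replicate 1 only Col6a1 was.

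Col26a1, a small secreted collagen-like protein, measured 6.22, 6.0 and 6.74 in negative and 6.05, 4.14 and 4.47 in positive replicates 1, 2 and 3. Positive replicate 1 was inside the negative range. The difference was -1.43 (SE 0.52, adjusted p = 0.725, limma), and -1.32 (SE 0.48) without positive replicate 3. Its other probe set, above background on no array, gave -0.05. Col8a1, a short-chain collagen of vessel walls and the cornea, measured 6.08, 5.14 and 5.00 in negative and 4.73, 4.26 and 5.45 in positive replicates, a difference of -0.59 (SE 0.43). Without positive replicate 3, in which it was highest among positive arrays, the difference was -0.99 (SE 0.35). Other probe sets of Col8a1 gave 0.02 and 0.65. Col8a2 and Col6a4 differed by -0.05 and -0.09. Col10a1 was at -0.04, 0.03 and 1.22 relative to the negative mean in positive replicates 1, 2 and 3, so its difference of 0.40 came from the dim array.

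**Figure D4:**
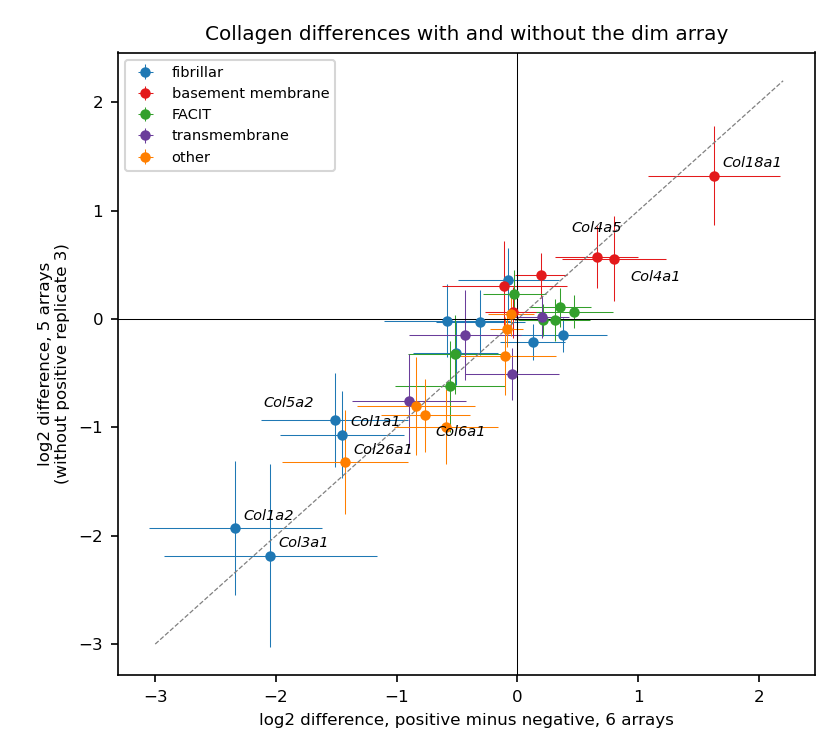
Log2 difference, positive minus negative, of the 34 collagen genes tested both with all 6 arrays (horizontal axis) and without positive replicate 3 (vertical axis), with SE bars and the line of equality. Col1a2 and Col3a1 are lowest and Col18a1 highest on both axes.

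The differences were thus partly set by the dim array. Among the 34 collagens tested in both fits 26 had the same sign, but the fits share 5 arrays. Without positive replicate 3 the fibrillar median was -0.26 over 10 genes, the basement membrane median 0.40 over 7, the FACIT median -0.01 over 7, the transmembrane median -0.33 over 4 and the median of the others -0.80 over 7. The all-gene median was then -0.003.

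Genes that make, cut, bind and degrade collagen were measured in the same arrays, and none of 45 tested passed with 6 arrays or without positive replicate 3 (limma). At an unadjusted p under 0.05 limma counted 6 of 45 with all 6 arrays, against 5.17% of all genes. Negative differences were found in 34 of the 45, and the median was -0.30. Of 20 genes for modification and folding 16 were negative, with a median of -0.40, and without positive replicate 3 there were 14 of 20 with a median of -0.21. Of all tested genes 52.8% were negative with 6 arrays. Serpinh1, the collagen-specific chaperone, measured 8.78, 9.30 and 8.62 in negative and 8.44, 6.82 and 7.97 in positive replicates 1, 2 and 3. Its groups did not overlap, with a difference of -1.16 (SE 0.43, adjusted p = 0.725, limma), and array weights called it, as the 1 gene of 45, at -1.38 (adjusted p = 0.00433, limma), in the fit that called 3.41% of all genes. Sec23a, a coat protein for export of large cargo from the endoplasmic reticulum, measured 6.72, 6.24 and 6.32 in negative and 6.19, 5.59 and 4.31 in positive replicates. It differed by -1.06 (SE 0.50), also without overlap, and by -0.56 without positive replicate 3. Among all 45 genes 6 had every positive array below every negative one, against 6.99% of all genes: these genes and P4hb, Colgalt1, Adamts3 and Ctsk. Mia3, a cargo receptor for bulky collagens, was the 1 gene of 45 with every positive array above, against 6.29% of all genes. Its difference was 0.84, and 0.30 without positive replicate 3. Of the 4 probe sets of Mia3, 3 had the opposite sign to the brightest, as did 1 of the 2 of Colgalt1.

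Of 10 tested genes for processing and cross-linking 8 were negative, with a median of -0.25. Pcolce, which enhances removal of the C-propeptide, measured 6.85, 7.28 and 7.72 in negative and 7.28, 4.97 and 4.39 in positive replicates 1, 2 and 3, a difference of -1.74 (SE 0.68). Lox, the oxidase that starts cross-links, measured 6.78, 5.80 and 6.03 in negative and 5.97, 4.24 and 4.03 in positive replicates, a difference of -1.46 (SE 0.54). Both had positive replicate 1 inside the negative range and the other positive arrays below it, as Col5a2 did. Neither gene passed (adjusted p = 0.725 for each, limma).

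Receptors were split by gene. The discoidin receptor Ddr2, which binds fibrillar collagens in mesenchymal cells, measured 6.59, 6.27 and 6.79 in negative and 6.56, 4.82 and 4.67 in positive replicates 1, 2 and 3, a difference of -1.21 (SE 0.53). Mrc2, an uptake receptor for collagen, measured 5.82, 6.14 and 5.40 in negative and 5.63, 4.48 and 4.44 in positive replicates, a difference of -0.94 (SE 0.43). Both had positive replicate 1 inside the negative range. The receptor Ddr1, found in many epithelia, measured 7.30, 7.15 and 4.49 in negative and 6.45, 6.54 and 5.50 in positive replicates 1, 2 and 3, a difference of -0.15 (SE 0.71) that was 0.21 without positive replicate 3. Of its 8 probe sets 5 had the opposite sign. The negative arrays alone spanned more than the positive ones for Ddr1. Integrin genes Itga1 and Itga2 differed by 0.39 (SE 0.23) and 0.37 (SE 0.27), and by 0.21 and 0.09 without positive replicate 3. Both were dim: Itga1 was above background on 2 positive arrays and 1 negative one, and Itga2 on 1 of each. Of the 2 probe sets of Itga1, 1 had the opposite sign. All 7 tested genes of collagen breakdown had negative differences, with a median of -0.65, and without positive replicate 3 there were 6 of 7 with a median of -0.27. The gelatinase Mmp2 measured 6.98, 6.91 and 8.16 in negative and 7.51, 5.63 and 5.01 in positive replicates, a difference of -1.30 (SE 0.65) that was -0.81 without positive replicate 3. Timp2, an inhibitor of Mmp2, measured 6.33, 6.35 and 6.69 in negative and 6.87, 5.55 and 4.67 in positive replicates, a difference of -0.76 (SE 0.54) that was -0.27 without positive replicate 3. Positive replicate 1 lay inside the negative range for Mmp2 and above it for Timp2.

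**Figure D5:**
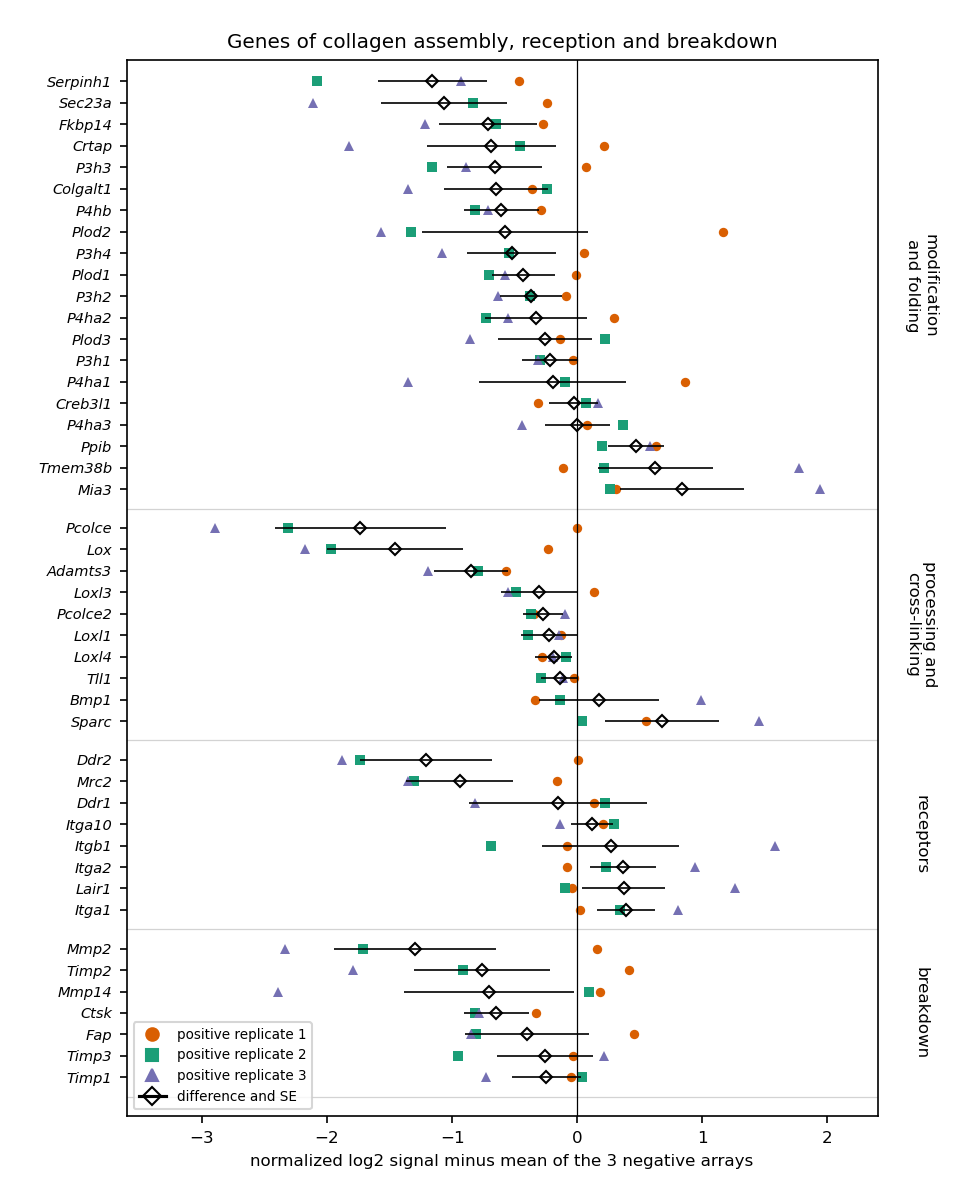
Normalized log2 signal of 45 tested genes of collagen modification, processing, reception and breakdown minus the mean of the 3 negative arrays. Coloured symbols are the 3 positive arrays and diamonds the difference with its SE. Pcolce, Lox, Ddr2 and Mmp2 have positive replicates 2 and 3 to the left and positive replicate 1 near 0.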

How the data were processed

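Sorted-cell RNA was biotin-labelled for Affymetrix mouse arrays, per the labels' protocols. The authors deposited a linear intensity for each probe set on each array. The submitters' processing notes name GCOS for 1 of 6 samples. Which summarization and scaling were applied is not given in the sources used here. Of 45101 probe sets 64 controls were set aside. The rest were quantile normalized and transformed to log2(signal + 16), a scale that understates changes of dim genes. Probe sets were named from GEO's platform annotation: 34945 had 1 gene, 932 had several genes and 9160 stay without a name here. Old symbols were replaced by way of RefSeq gene identifiers of GRCm38.p6, of which 34741 matched. Each gene took its probe set with the highest mean. The 14071 genes past the 30th percentile of mean log2 signal were tested with limma 3.58.1 in R 4.3.3 (lmFit, then eBayes with a trend on signal), and called at a Benjamini-Hochberg adjusted p under 0.05. The steps were tested on simulated data. Groups were taken from the labels, which do not say that fractions share a litter, so p-values measure the spread between arrays, and the number of arrays limits precision. Alternatives were the normalization, pseudocount, filter, probe sets, variance model, pool size as a block, and leaving out arrays.

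Collagen members, marker and pathway lists were chosen with earlier results of these data known. Full values were given for Col1a1, Col1a2, Col3a1, Col4a1, Col4a2, Col4a5, Col4a6, Col7a1, Col17a1 and Col18a1, for up to 4 members a class with the largest difference, and for up to 2 pathway genes a list. Further genes were named after their values were seen. Col6a6, Col21a1 and Col28a1 are not analysed here.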

Additional observations from a re-analysis of the deposited data

How the results depend on the processing

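Over all genes the count past the threshold was 2, and it was 0 with values as deposited, with a pseudocount of 64 or with the mean of probe sets, 34 with median centring, 6 with a filter at the 50th percentile, 7 with probe sets chosen without positive replicate 3 (added after seeing the data), 480 with array weights and 33 with pools of 3 and 5 embryos alone (limma). Leaving out 1 array gave 0 to 84: 0, 1 and 0 without negative replicates 1, 2 and 3 and 22, 4 and 84 without positive replicates 1, 2 and 3. The collagen count of 0 became 3 with array weights and 0 to 1 when 1 array was left out, the 1 being Col1a2 without positive replicate 1, and the pathway count of 0 became 1 with array weights. Pool size as a replicate block left both collagen and pathway counts at 0 over 6 arrays. With the block and without positive replicate 3, 557 genes passed, 4.05% of all, with 4 collagens (Col18a1 higher, Col1a2, Col3a1 and Col8a1 lower) and 3 pathway genes. In that fit the pool of 2 holds only a negative array, which carries no information on the difference. Deviations from the group means correlated at 0.127, 0.033 and 0.109 between positive and negative arrays of equal pool size. Between arrays of unequal pool size the correlations ran from -0.131 to 0.063. Sample titles carry adjacent numbers for arrays of equal pool size. Whether these arrays are pairs is not stated in the labels, and the main fit does not pair them. The collagen median of -0.05 was -0.62 as deposited, -0.43 with median centring and -0.39 with a pseudocount of 1. In the same settings the transmembrane median was -0.82, -0.63 and -0.78, and -0.58 with pools of 3 and 5 embryos alone. The median of the other class was -1.26, -1.07 and -1.23. As deposited the fibrillar median was -1.12, the basement membrane median was -0.36 as deposited and -0.17 with median centring, and the FACIT median was 0.77 with a pseudocount of 1. Values as deposited and median centring move the median of all genes to -0.48 and -0.29. The cause of the other shifts was not tested. Dim signal in positive replicate 3 limits every value near background.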

Other observations

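Probe sets of 1 collagen gene did not always give the same direction. Of 27 collagens with several probe sets 12 had at least 1 of opposite sign to the brightest, among them Col4a1, Col4a5, Col5a1, Col8a1, Col12a1 and Col27a1. Both probe sets of Col18a1, Col3a1 and Col5a2 and all 3 of Col1a2 had 1 sign. For Col27a1 the probe sets gave -0.07 and 0.40. For Col11a1 the brightest gave -0.51 and the other -0.25, and the latter read 62.8 in deposited units in positive replicate 1, above the 11.3 to 36.3 of the negative arrays.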
